A study of Homo sapiens with 16 samples.

Results

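CTNNB1, GSK3B, WNT5A and NOTCH1 are genes of the Wnt and Notch signalling pathways, and all 4 were named in a table of processes over-represented among genes of MDA231 brain metastases. They were chosen with this table known, so the numbers of its terms that name them are a description and carry no test. The table named 2646 genes in 314 terms. The matching table for HCC1954 brain metastases named 30 genes in 37 terms, and none of the 4 was among them.

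Wnt ligands are secreted proteins that bind Frizzled receptors and LRP co-receptors. Without a Wnt signal, a destruction complex built on AXIN and APC lets the kinase GSK3B phosphorylate beta-catenin, the product of CTNNB1, which marks it for degradation. With a signal, beta-catenin accumulates and acts with TCF and LEF factors on target genes; the same protein also links cadherins to the cytoskeleton at cell junctions. WNT5A is a ligand best known for signalling that does not pass through beta-catenin. NOTCH1 is a receptor that is cut when a ligand on a neighbouring cell binds it, and its freed intracellular part then acts with RBPJ and MAML proteins in the nucleus.

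The study used Flura-seq, in which cells that convert 5-fluorocytosine incorporate it into new RNA, and an antibody against BrdU then pulls that RNA down. Brain-metastatic derivatives of MDA231, a triple-negative breast cancer line, and HCC1954, an ERBB2-positive line, were grown in mouse brain for 30 days, and mice received 250 mg/kg 5-fluorocytosine 12 hours before harvest. The labels give 4 input and 4 immunoprecipitated libraries for each line, 16 libraries in all; the labels do not say which mouse strain or age was used, or whether libraries of a group came from separate mice. The values analysed are the 2 tables of Gene Ontology biological processes, 1 for each line, with no value for any library. Replicate spread and depth thus stay unknown here, markers of the tumour or host cells could not be checked, and whether a listed gene was higher or lower in the immunoprecipitated RNA is not stated. The MDA231 list held 3626 genes with a process, of 16792 background genes, and 980 of them (27.0%) stood in no listed term. A gene that is not named may therefore still have been listed.

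On GRCh38, 3 of the 4 genes lie on chromosome 3. CTNNB1 (ENSG00000168036) spans 41194741 to 41260096 on the plus strand, WNT5A (ENSG00000114251) 55465715 to 55490539 on the minus strand and GSK3B (ENSG00000082701) 119821323 to 120094417 on the minus strand. NOTCH1 (ENSG00000148400) spans 136494433 to 136545786 on the minus strand of chromosome 9. All are protein-coding in GENCODE release 29.

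CTNNB1 and GSK3B were each in 13 of the 314 MDA231 terms (4.14%), WNT5A in 9 (2.87%) and NOTCH1 in 7 (2.23%). The median named gene was in 2 terms, and the most frequent in 23. Of the 2646 named genes, 17 (0.642%) were in 13 or more terms, 71 (2.68%) in 9 or more and 162 (6.12%) in 7 or more. Because the 4 genes were chosen by this number, these shares describe the choice. Together the 4 genes were in 33 terms. Of these, 1 had a Benjamini p under 0.05, read from the authors' deposited table, against 4.78% of all listed terms. An unadjusted p under 0.05 was reached by 21 of the 33 (63.6%), against 68.2% of all listed terms. Both shares lie near the background. Terms overlap in their genes and are not independent of each other.

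**Figure D1:**
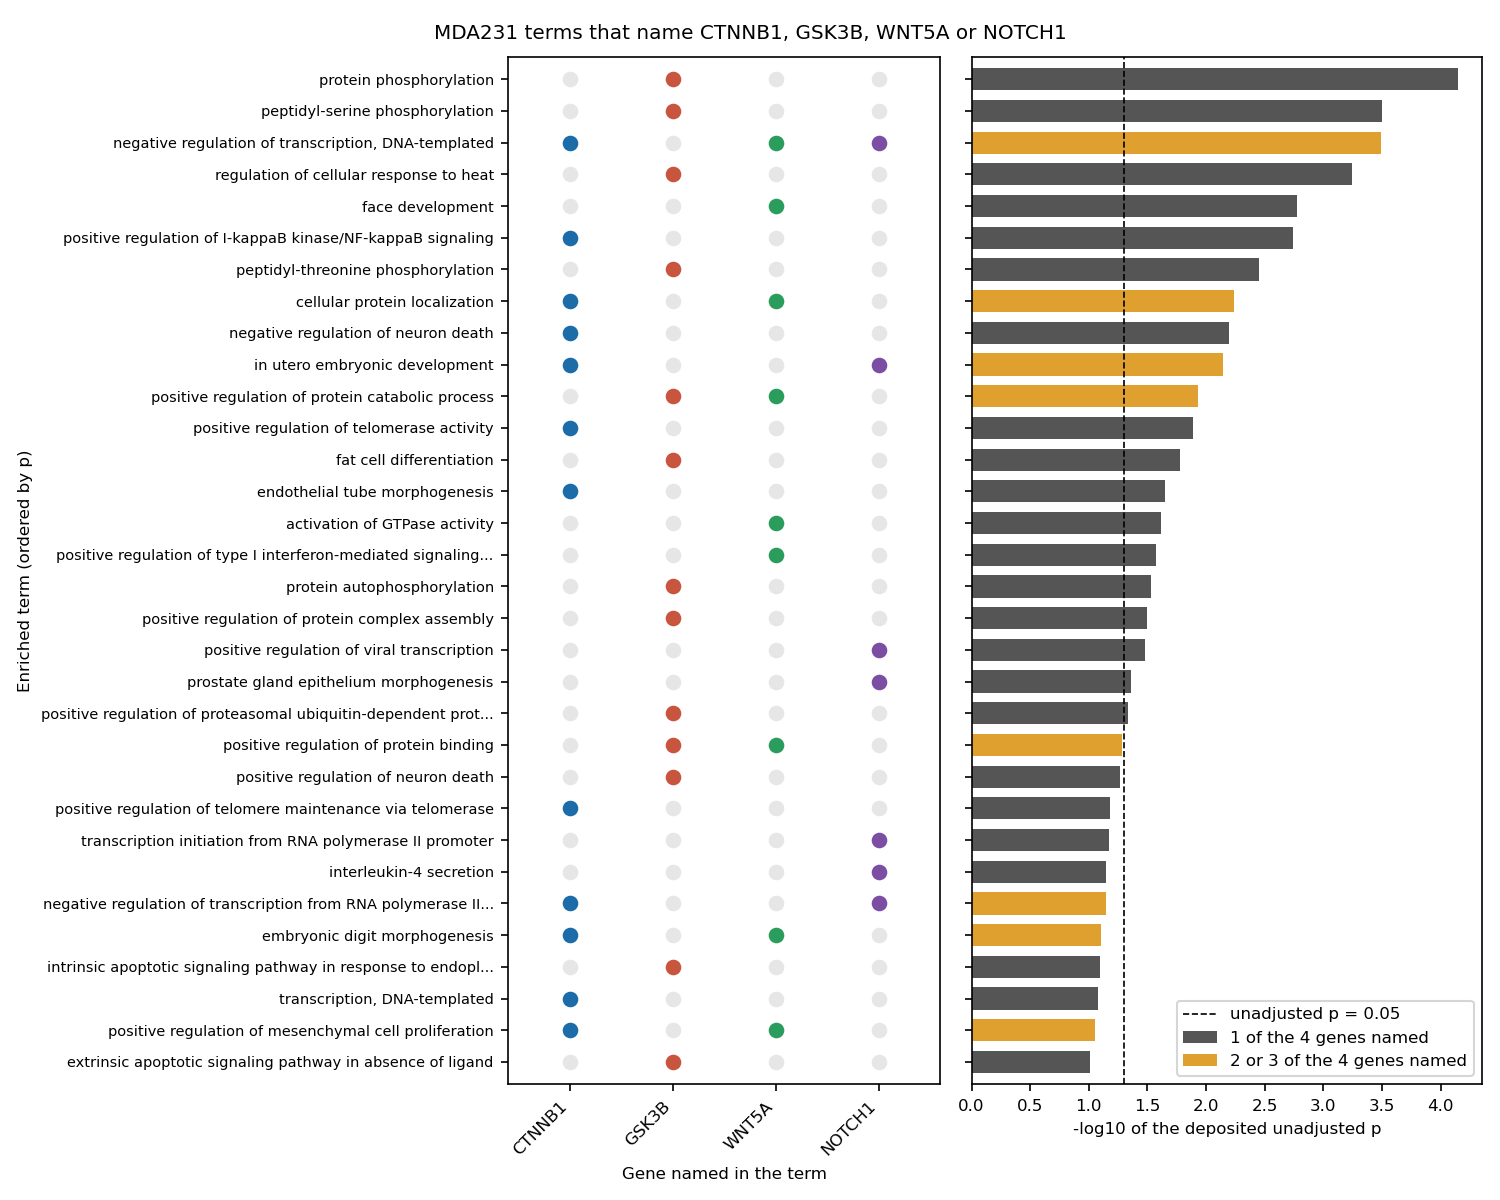
Each line is an MDA231 term that names at least 1 of the 4 genes, ordered by p; coloured dots on the left mark the genes named, and bars on the right give −log10 of the deposited unadjusted p, with terms naming 2 or 3 of the genes in orange and a dashed line at the unadjusted threshold of 0.05. GSK3B fills the leading pair of terms, and the orange bars mark the 8 terms that name more than 1 of the genes; 1 of the 33 terms is not drawn.

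GSK3B, a serine and threonine kinase, supplied the term past the adjusted threshold. Protein phosphorylation drew 134 of its 456 background genes, for which the authors' deposited table gives a fold of 1.36 (exact 95% interval of this fold 1.14 to 1.61) and an adjusted p of 0.0350. Peptidyl-serine phosphorylation followed with 45 of 125 background genes and a fold of 1.67 (exact interval 1.22 to 2.23; adjusted p = 0.0931, per the authors' deposited table). Peptidyl-threonine phosphorylation drew 17 of 38 background genes for a fold of 2.07 (adjusted p = 0.413, per the authors' deposited table), and protein autophosphorylation 49 of 172 for a fold of 1.32 (adjusted p = 0.792, per the authors' deposited table). The exact interval of the autophosphorylation fold, 0.978 to 1.74, includes 1. Phosphorylation thus accounted for 4 of the 13 GSK3B terms. Just 6 genes were in all 4: GSK3B, DYRK1A, LMTK2, MTOR, PDPK1 and TAF1. All but TAF1, a subunit of the general transcription factor TFIID, are known first as kinases.

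Cell death made up 3 more GSK3B terms, none past the adjusted threshold. Positive regulation of neuron death drew 8 of 17 background genes, and the authors' deposited table gives a fold of 2.18 (unadjusted p = 0.0546). Its other members were BAD, DAXX, DDIT4, MAP3K5, MTOR, PPP1R13B and ZNF746. The endoplasmic reticulum stress branch of intrinsic apoptosis drew 12 of 33 background genes, and the authors' deposited table gives a fold of 1.68 (unadjusted p = 0.0809), among them the stress sensor ERN1, the transcription factor DDIT3 and the pseudokinase TRIB3. Extrinsic apoptosis in absence of ligand drew 12 of 34 background genes for a fold of 1.63 (unadjusted p = 0.0973, per the authors' deposited table), the largest p of the whole table, tied with histone acetylation. That term placed GSK3B beside the death receptor FAS, its adaptor FADD and the receptor ERBB3.

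Protein breakdown gave GSK3B a further pair. Positive regulation of protein catabolic process drew 22 of 60 background genes, and the authors' deposited table gives a fold of 1.70 (unadjusted p = 0.0117). GSK3B stood there with AXIN1 and APC, the scaffolds of the destruction complex, and with WNT5A. The proteasomal ubiquitin-dependent counterpart drew 21 of 64 background genes, and the authors' deposited table gives a fold of 1.52 (unadjusted p = 0.0461). It named PRICKLE1, a planar cell polarity protein, the polo-like kinases PLK1 and PLK2 and the ubiquitin ligase adaptor KEAP1. For this proteasomal term the exact interval of the fold, 0.942 to 2.32, includes 1. The other GSK3B terms were regulation of cellular response to heat (30 of 75 genes, 1.85-fold), fat cell differentiation (25 of 73, 1.59-fold), positive regulation of protein complex assembly (10 of 22, 2.10-fold) and positive regulation of protein binding (20 of 61, 1.52-fold), all in the authors' deposited table.

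CTNNB1 appeared in a different set of processes, with none past the adjusted threshold, against 4.78% of all listed terms. An unadjusted p under 0.05 was reached by 7 of its 13 terms, against 68.2% of all listed terms. Of the 13, transcription terms numbered 3. Negative regulation of transcription, DNA-templated, drew 141 of 499 background genes for a fold of 1.31 (interval 1.105 to 1.54; adjusted p = 0.0909, per the authors' deposited table). Its RNA polymerase II counterpart drew 173 of 720 background genes for a fold of 1.11 (unadjusted p = 0.0713, per the authors' deposited table), and the general term transcription, DNA-templated, 447 of 1955 for a fold of 1.06 (unadjusted p = 0.0843, per the authors' deposited table). The last is the broadest of all listed terms and has the lowest fold among them. Exact intervals of the RNA polymerase II fold (0.956 to 1.29) and of the general term's fold (0.968 to 1.15) include 1.

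Development and growth supplied 4 CTNNB1 terms. In utero embryonic development drew 56 of 187 background genes, and the authors' deposited table gives a fold of 1.39 (unadjusted p = 0.00713). Endothelial tube morphogenesis had the highest fold of any term naming the 4 genes in the authors' deposited table, 3.86 (exact interval 1.25 to 8.998; unadjusted p = 0.0223), and rested on 5 of 6 genes. Those 5 were CTNNB1, CCM2, a cerebral cavernous malformation gene, CSNK2B, a casein kinase subunit, PRKD2, a protein kinase, and RHOB, a small GTPase. Embryonic digit morphogenesis drew 18 of 56 background genes for a fold of 1.49 (unadjusted p = 0.0794) and positive regulation of mesenchymal cell proliferation 10 of 26 for a fold of 1.78 (unadjusted p = 0.0888), both in the authors' deposited table.

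A pair of telomerase terms also named CTNNB1. Positive regulation of telomerase activity drew 13 of 29 background genes for a fold of 2.08 (unadjusted p = 0.0128), and positive regulation of telomere maintenance via telomerase 12 of 32 for a fold of 1.74 (unadjusted p = 0.0664), in the authors' deposited table. They shared 9 genes, a Jaccard index (shared divided by total) of 0.562 and the highest of the 528 pairs among the 33 terms. The 9 were ACD, CCT4, CTNNB1, HMBOX1, MAPKAPK5, NEK2, PKIB, STN1 and TNKS. ACD and STN1 bind telomeres, and TNKS is tankyrase, a poly-ADP-ribosylating enzyme that acts both at telomeres and on AXIN.

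Of the remaining CTNNB1 terms, positive regulation of I-kappaB kinase/NF-kappaB signaling drew 52 of 161 background genes, and the authors' deposited table gives a fold of 1.496 (unadjusted p = 0.00180). Negative regulation of neuron death drew 17 of 40 background genes, and the authors' deposited table gives a fold of 1.97 (unadjusted p = 0.00641), with SIRT1, CDK5, CREB1 and HSF1. CTNNB1 was thus in the negative and GSK3B in the positive neuron death term, and these had 0 genes in common, as had 217 of the 528 pairs (41.1%) among the 33 terms.

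WNT5A stood in 9 terms, 6 of them at an unadjusted p under 0.05, against 68.2% of all listed terms. None was past the adjusted threshold, against 4.78% of all listed terms. Face development led the WNT5A terms without another of the 4 genes, with 11 of 18 genes. The authors' deposited table gives a fold of 2.83 (interval 1.41 to 5.06, unadjusted p = 0.00169). It named the retinoic acid receptors RARA and RARG and also GRHL2, an epithelial transcription factor. Positive regulation of type I interferon-mediated signaling pathway drew 6 of 9 background genes, and the authors' deposited table gives a fold of 3.09 (interval 1.13 to 6.71; unadjusted p = 0.0269). Beside WNT5A these were FADD, IRF3, IRF7, MAVS and NLRC5, which act in innate immune signalling. Activation of GTPase activity drew 26 of 79 background genes for a fold of 1.52 (unadjusted p = 0.0241, per the authors' deposited table). Its interval, 0.997 to 2.23, includes 1. The other 6 WNT5A terms each named another of the 4 genes.

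NOTCH1 was named mostly in transcription terms, 4 of its 7. Positive regulation of viral transcription drew 12 of 29 background genes, and the authors' deposited table gives a fold of 1.92 (unadjusted p = 0.0334). An exact interval of 0.991 to 3.34 for this fold includes 1. Despite its name, the term consisted largely of host transcription machinery: 6 of the 12 were RNA polymerase II subunit genes, beside CCNT1, GTF2F1, GTF2F2, NELFB and RSF1. Transcription initiation from RNA polymerase II promoter drew 42 of 152 background genes for a fold of 1.28 (unadjusted p = 0.0666, per the authors' deposited table), and here NOTCH1 stood with NOTCH3 and the co-activator MAML1.

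A pair of small NOTCH1 terms had high folds. Interleukin-4 secretion held 4 of 5 genes (GATA3, IL1RAP, NOTCH1 and VTCN1) and had a fold of 3.70 per the authors' deposited table (exact interval 1.01 to 9.48; unadjusted p = 0.0708). Prostate gland epithelium morphogenesis held 5 of 7, with FOXA1, ID4 and RARG beside NOTCH1, and had a fold of 3.31 per the authors' deposited table (exact interval 1.07 to 7.71; unadjusted p = 0.0432). Each rests on at most 5 genes, and the intervals are correspondingly wide; they ignore how many background genes a term has, so an upper bound can exceed the largest fold possible, 4.63.

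**Figure D2:**
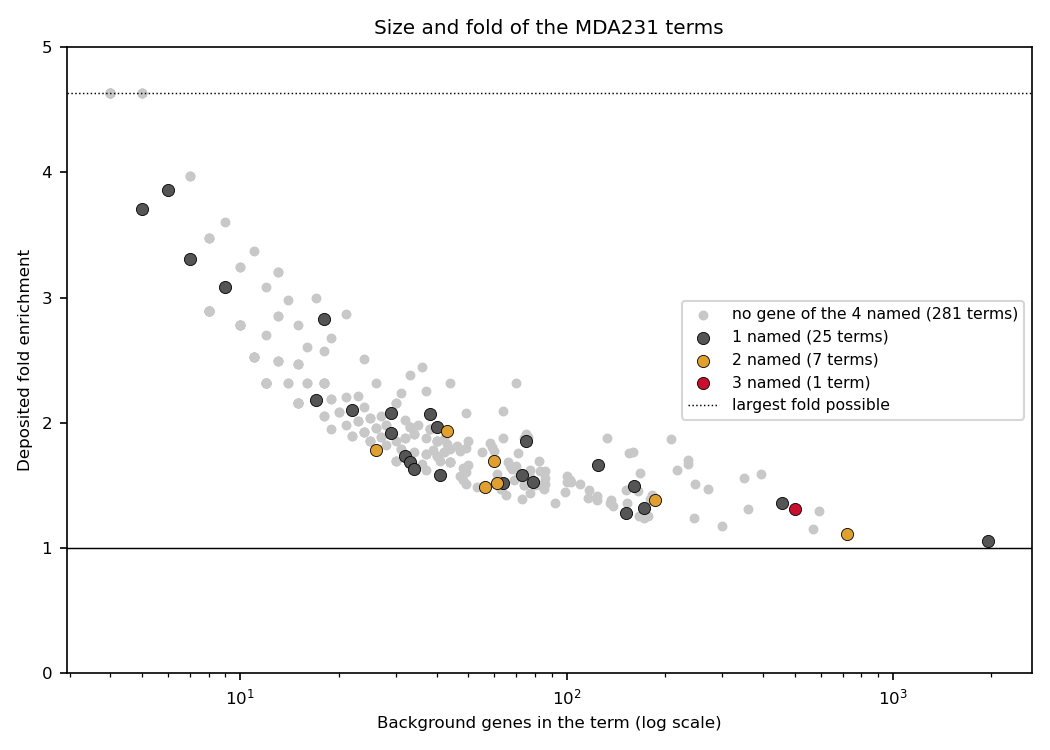
Each point is 1 of the 314 MDA231 terms, with its number of background genes on a log axis and its deposited fold enrichment on a linear axis; colour gives how many of the 4 genes it names, the solid line is a fold of 1 and the dotted line the largest fold possible. Terms naming the genes follow the same fall of fold with size as the rest, from 3.86 in a term of 6 genes to 1.06 in the term of 1955. No listed p exceeds 0.0973, so a small term is listed only at a high fold. The fall is thus built into the listing.

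Terms naming any of the 4 genes had a median of 43 background genes and a median fold of 1.68. The medians over all 314 terms were 30.5 genes and 1.93-fold, and over the 281 terms naming none of them 29 genes and 1.96-fold. The value of 4.63 is reached when every background gene of a term was listed.

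Of the 33 terms, 8 named at least 2 of the 4 genes, 1 named 3 and 0 named all 4. Negative regulation of transcription, DNA-templated, was the term with 3: CTNNB1, WNT5A and NOTCH1. CTNNB1 and WNT5A had most in common, 4 terms (Jaccard index 0.222), which is 30.8% of CTNNB1's terms and 44.4% of WNT5A's. Beside the 3-gene term they met in cellular protein localization (18 of 43 genes, 1.94-fold, unadjusted p = 0.00578, per the authors' deposited table), embryonic digit morphogenesis and positive regulation of mesenchymal cell proliferation. CTNNB1 and NOTCH1 shared 3 terms (Jaccard index 0.176): both negative regulation of transcription terms and in utero embryonic development.

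GSK3B met WNT5A in 2 terms (Jaccard index 0.100), positive regulation of protein catabolic process and positive regulation of protein binding, and met neither CTNNB1 nor NOTCH1 in any. WNT5A and NOTCH1 shared only the 3-gene term (Jaccard index 0.0667). Sharing no term was common among genes as frequent as GSK3B and CTNNB1. Of the 136 pairs of the 17 genes in 13 or more terms, 46 (33.8%) shared 0. NOTCH1 and WNT5A, in fewer terms, are not among those 17. The lack of a shared term between the kinase and its best-known substrate is thus no mark of this pair.

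Partner genes are those named in a term with any of the 4. The partners of NOTCH1 and WNT5A overlapped widely with those of CTNNB1. Those of GSK3B did so little more than all other named genes. Of the other partners of NOTCH1, 300 of 319 (94.0%) were also partners of CTNNB1, as were 184 of 241 for WNT5A (76.3%) and 77 of 282 for GSK3B (27.3%), against 25.6% of all other named genes. The large transcription terms that CTNNB1 shares with NOTCH1 and WNT5A enter these counts, and none of them names GSK3B. CTNNB1 had 678 partner genes, of which 73 shared 3 or more of its terms. The closest by Jaccard index were SIN3A, a corepressor scaffold, and TBX3, a T-box transcription factor, each in 5 shared terms (0.312). FHL2, a LIM-domain coregulator, and HMBOX1, a telomere-binding homeobox protein, followed with 4 shared terms (0.308): neither was in any term without CTNNB1. SMAD4, the common mediator of TGF-beta signals, shared 5 (0.294).

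GSK3B had 282 partner genes, of which 25 shared 3 or more terms, and its leading 5 were all kinases. DYRK1A, a dual-specificity kinase that can prime GSK3 substrates, and MKNK2, a kinase of the translation factor eIF4E, were each named only beside GSK3B, in 4 terms (0.308). PLK2 shared 5 (0.294), LMTK2 shared 4 (0.286) and MTOR shared 6 (0.261). MTOR's 6 terms were the most that any gene had in common with GSK3B, a number also reached by TAF1.

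NOTCH1 had 320 partner genes, and 13 shared 3 or more of its terms. GATA6, NR1H2 and VDR shared 3 each (0.375), GATA3 shared 4 (0.333) and CHD8 shared 3 (0.273). GATA6 and GATA3 are zinc finger transcription factors, NR1H2 and VDR nuclear receptors, and CHD8 a chromatin remodeller known to bind beta-catenin. WNT5A had 242 partner genes, of which 223 shared a single term with it. CTNNB1 was the only gene in 3 or more WNT5A terms, with 4, and no other gene shared more than 2.

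**Figure D3:**
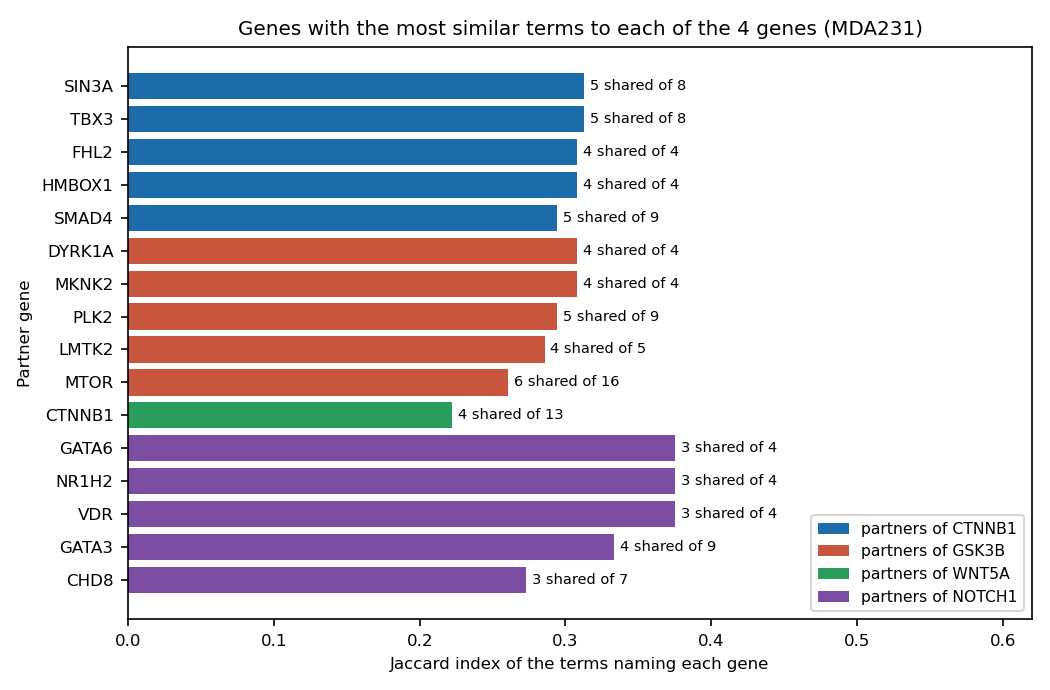
Bars give the Jaccard index between the terms naming each gene of the 4 and those naming a partner gene, for up to 5 partners sharing at least 3 terms, and the label gives shared terms out of all terms of the partner. NOTCH1 partners reach 0.375, CTNNB1 and GSK3B partners at most 0.312, and WNT5A has CTNNB1 alone at 0.222. The index depends on how many terms a gene has, so its height is not comparable between the 4 genes. NOTCH1, in 7 terms, reaches 0.375 with 3 shared terms, while SIN3A shares 5 with CTNNB1 at 0.312.

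Some genes, picked out after their values were seen, recurred across these terms. SIN3A, SMAD4 and TBX3 were each in 4 of the 8 terms that name at least 2 of the genes, more than any gene outside the 4. In all, 27 genes shared at least 1 term with every one of the 4, among them CBY1, a beta-catenin antagonist, CTBP1, a corepressor, the receptors BMPR1A, FGFR1 and TGFBR2, the deacetylase SIRT1 and PRICKLE1. Negative regulation of transcription, DNA-templated, with 141 genes, names CTNNB1, WNT5A and NOTCH1 at once. A gene in it thus needs just 1 GSK3B term to be counted, as for PRICKLE1. The count is therefore no measure of closeness to the 4 genes. By contrast, 1720 of the other named genes shared no term with any of them.

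Other Wnt and Notch genes were looked up in 11 lists that hold 163 distinct genes without the 4. Of these, 24 (14.7%) were named in the MDA231 table, against 15.8% of all background genes, and the median over those named was 3 terms, against 2 over all named genes. The share of these pathways named is thus near the background. No listed term of either table has Wnt, catenin, Notch, Frizzled, planar cell polarity, glycogen synthase or cadherin in its name.

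Among ligands and secretion factors, WLS, which escorts Wnt proteins to the cell surface, was the only one named of 20 beside WNT5A (5%). Of all background genes 15.8% were named. WLS was in 2 terms, 1 of them the NF-kappaB term with CTNNB1. Receptors and co-receptors were named in 5 of 20 cases (25.0%), against the same 15.8%, and the difference was not tested. LRP5, a Wnt co-receptor, was in 4 terms and met both CTNNB1 and WNT5A in embryonic digit morphogenesis and mesenchymal cell proliferation. LGR4, an R-spondin receptor, was in 1 term, the one with CTNNB1, WNT5A and NOTCH1. FZD3, a Frizzled receptor, was in neural tube closure alone, and RNF43 and ZNRF3, ligases that remove Frizzled from the membrane, were each in 2 ubiquitin terms. None of 18 secreted modulators such as DKK1, SFRP1 or RSPO3 was named, against 15.8% of all background genes, and the difference was not tested.

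The Dishevelled and destruction complex list had the largest share named, 6 of 16 genes beside GSK3B (37.5%). This stood against 15.8% of all background genes, and the difference was not tested. APC was in 5 terms and AXIN1 in 4, and both stood with GSK3B and WNT5A in positive regulation of protein catabolic process. TNKS was in 9 terms, 2 with CTNNB1 and 2 with GSK3B, and its relative TNKS2 was in 2, 1 of them with CTNNB1. DVL2, a Dishevelled protein that relays the signal from Frizzled, was in 3 terms and shared cellular protein localization with CTNNB1 and WNT5A. DVL3 was in 2 terms, neither with any of the 4 genes. This list was drawn up with earlier results of these data known, so its share is a description.

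Nuclear partners of beta-catenin numbered 2 of 15 (13.3%), against 15.8% of all background genes. TLE1, a Groucho corepressor, was in 4 terms, 3 of them with CTNNB1, and PYGO2, a co-activator, was in 2. No TCF or LEF factor was named. Of 15 target genes 3 were named (20%, against 15.8%). They were MYC, in 15 terms of which 4 also named CTNNB1, and the receptor ligases RNF43 and ZNRF3 given above. AXIN2, LEF1, TCF7 and CCND1 were not named. In the noncanonical list 2 of 15 were named (13.3%, against 15.8%). PRICKLE1 was in 4 terms and the JUN kinase MAPK8 in 6, of which 3 were phosphorylation terms with GSK3B.

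Of the cadherin and catenin adhesion genes, 3 of 11 were named (27.3%), against 15.8% of all background genes, and the difference was not tested. CDH1, the epithelial cadherin that binds beta-catenin, was in 3 terms and JUP, plakoglobin, in 2, and none of these named any of the 4 genes. CTNND1, p120-catenin, was in 1, transcription, DNA-templated, with CTNNB1. CTNNB1 itself was in no adhesion or membrane localization term of the table.

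Of the 41 other genes in the 3 Notch lists, 4 (9.76%) were named, against 15.8% of all background genes, and the difference was not tested. Of the 8 other receptors and ligands, NOTCH3 alone was named; it was in 3 terms, 2 of them with NOTCH1, and no Delta-like or Jagged ligand was. Processing and trafficking gave 2 of 21 genes (9.52%): ITCH, a ubiquitin ligase, in 11 terms, none with NOTCH1, and MIB1, a ligase needed for ligand activity, in 4, including in utero embryonic development with NOTCH1 and CTNNB1. The nuclear list gave MAML1 alone of 12 (8.33%), in 2 terms, and no HES or HEY target was named.

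**Figure D4:**
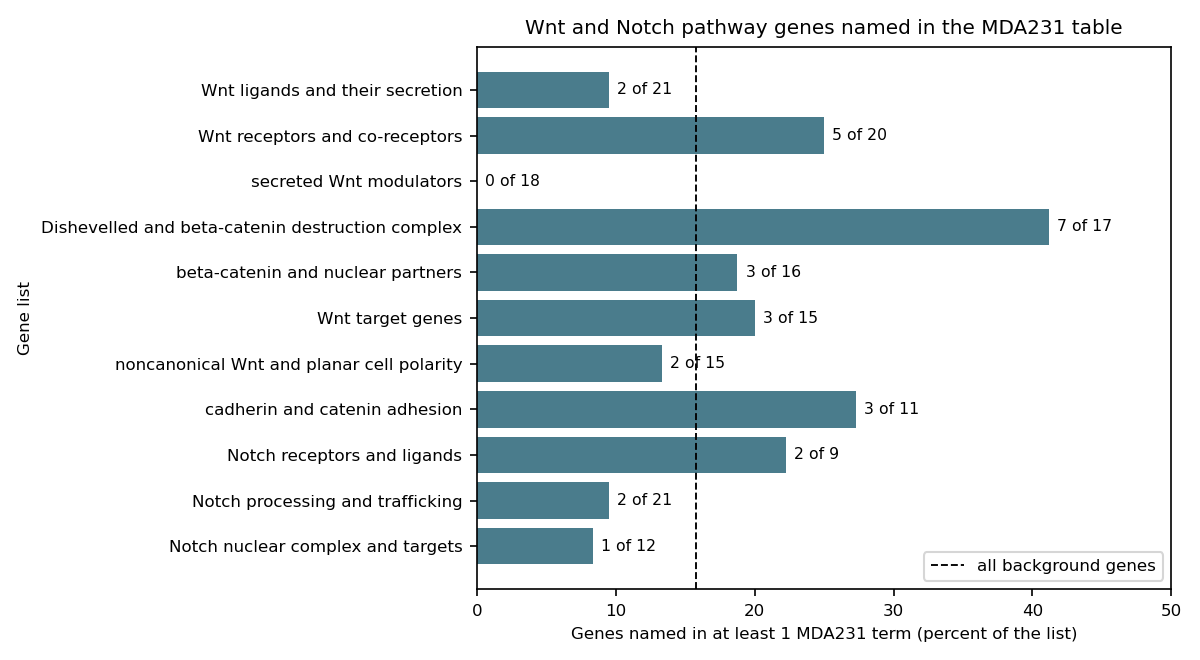
Bars give the percent of each gene list named in at least 1 MDA231 term, with counts at the bar ends and the 4 genes included in their own lists; the dashed line marks all background genes at 15.8%. The destruction complex list reaches 7 of 17 with GSK3B counted, while secreted Wnt modulators are at 0 of 18.

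In the HCC1954 table none of the 4 genes and none of the other 163 pathway genes was named. That table names 0.179% of its background genes, and a share of 0 lies near that background. Whether the 4 genes differ between the lines cannot be read from these tables. A gene outside the listed terms may still have been in the HCC1954 list, of which 36 of 66 genes (54.5%) stood in no listed term.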

How the data were processed

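RNA of brain metastases was profiled in 16 libraries, 4 each of input and immunoprecipitated RNA for MDA231 and HCC1954. The submitters' processing notes name STAR, HTSeq, GRCh38 and GRCm38. Their versions, the enrichment tool and how genes entered each list are not given. Per the file headers, the deposited tables give for each term the counts of listed and background genes and the percent of submitted genes. They also give unadjusted, Bonferroni and Benjamini p-values, a fold enrichment (a ratio of shares) and a false discovery rate. A last unnamed deposited column, which matches −log10 of a p-value, was not used. No listed p exceeded 0.0973 (MDA231) or 0.0995 (HCC1954) in the deposited tables.

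Ensembl identifiers were matched to symbols, which all but 3 of 2646 MDA231 genes had. Coordinates are from GENCODE release 29. In 3 MDA231 terms the deposited count differs from the identifiers printed, and was kept. Fold intervals are exact (Clopper-Pearson) 95% binomial intervals of listed genes divided by the background share, and cover the draw of genes only. They were computed apart from the deposited p-values, so an interval and its p can disagree on whether a fold of 1 is excluded. The intervals are printed for part of the terms, and several of those left out also include 1. The likeness of genes is the Jaccard index of the terms naming them. Named partners are the 5 with the highest index among genes in at least 3 shared terms, ties by symbol; pathway genes named in the table are all given. The genes, lists and rules were chosen with earlier results of these data known, and the kinds of term (transcription, cell death and so on) after the terms were seen. List members absent from the background, if any, are not known. The counting functions were tested on simulated tables. The planned tests of immunoprecipitated against input RNA could not be made without values per library. No protein sequence was used here, and 1 term and some genes of others are not reported here. Python 3.11.15, SciPy 1.17.1 and matplotlib 3.10.9 were used.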

Additional observations from a re-analysis of the deposited data

How the results depend on the processing

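No paired analysis was possible because the tables give no value per library; leaving out replicates and the planned count models were not run for the same reason. An unadjusted p under 0.05 was reached by 68.2% of all listed terms, and a Benjamini p under 0.05 by 4.78%. With only terms at an unadjusted p under 0.05, CTNNB1 was in 7 terms, NOTCH1 in 4, and 4 terms named at least 2 of the genes. GSK3B, in 9, and WNT5A, in 6, stayed within 1.5 times of their counts. With only terms at a Benjamini p under 0.05, GSK3B was in 1 term, CTNNB1, WNT5A and NOTCH1 in 0, and shared terms numbered 0. The count of terms past the adjusted threshold, 1, was 0 at a Benjamini p under 0.01, 0 at a Bonferroni p under 0.05 and 21 at an unadjusted p under 0.05. Dropping terms of under 10 background genes, or collapsing overlapping terms, kept each of these term counts within 1.5 times. The 24 other pathway genes became 21 when at least 2 terms were required and 22 when a term at an unadjusted p under 0.05 was. Among single lists, 1 of 22 comparisons moved by over 1.5 times, receptors and co-receptors, from 5 to 3. Leading partners depended on the measure: ranked by shared terms, 3 of 5 stayed for each of CTNNB1, GSK3B and NOTCH1, and with terms at an unadjusted p under 0.05, 1, 3 and 0 did. WNT5A then had no gene in 3 shared terms. HCC1954 named 0 of the 4 genes under either matching.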
